A study of Mus musculus with 203 samples.

Results

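Dexamethasone-treated mice with experimental asthma were compared with and without cigarette smoke, in the lung parenchyma after 11 weeks. The comparison takes the 10 parenchyma libraries labelled HDM.CS.DEX and the 10 labelled HDM.AIR.DEX, 20 libraries that are 9.85% of those in the series, and it was chosen by these labels alone. All mice were female Balb/C animals aged 18 to 20 weeks. Both groups received house dust mite extract (HDM) through the nose on 5 days per week for 3 weeks and then 3 times per week from week 4, and both were treated with the glucocorticoid dexamethasone (DEX) in week 11. The HDM.CS.DEX mice also breathed cigarette smoke (CS) 2 times per day on 5 days per week for 8 weeks, while the HDM.AIR.DEX mice breathed normal air (AIR). HDM and DEX are thus common to both groups, and the contrast is that of smoke. To show where the effect differed, the smoke effect was also taken in mice given HDM without DEX (HDM.CS and HDM.AIR). The same was done in mice given phosphate buffered saline (PBS) with DEX (PBS.CS.DEX and PBS.AIR.DEX). These libraries, and those of PBS mice without DEX (PBS.CS and PBS.AIR), were also in the fit of 80 libraries. Each group had 10 parenchyma libraries. That fit set the gene filter, the scaling and the spread behind the p-values of the main comparison. The labels do not say whether each library is from a separate mouse, so p-values measure the spread between libraries.

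Polycyclic compounds in smoke bind the aryl hydrocarbon receptor (AhR), which enters the nucleus with its partner ARNT and switches on enzymes that oxidise and conjugate foreign compounds, together with its own repressor AHRR. Oxidants in smoke act through NRF2, a transcription factor that is held by KEAP1 until it is released and then drives glutathione and quinone-reducing enzymes. HDM brings T cells, B cells and antigen-presenting cells into the lung, and MHC class II molecules show peptides to helper T cells under the control of the coactivator CIITA. Glucocorticoids bind the receptor NR3C1, induce targets such as Fkbp5 and Tsc22d3 and reduce the number of many lymphocytes.

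In 19 of the 20 libraries the total counts lay between 23040519 and 34942385. The other, HDM.AIR.DEX replicate 2 (library X32), held 13003087 counts, and 40.39% of them fell on ribosomal RNA carry-over genes against 0.298% to 1.11% in the other libraries. HDM.AIR.DEX replicate 1 (X12) was highest of its group for several lymphoid genes, and HDM.CS.DEX replicate 8 (X160) was far above its group in cell cycle genes, as given beside those results. Counts of changed genes are therefore given also without these libraries. The tissue label was checked on marker genes against the airway libraries of the same exposures. The alveolar genes Sftpc (median 14622 CPM against 11025 in airways) and Ager (2181 against 1638) were higher in parenchyma, and the smooth muscle gene Myh11 (34.4 against 97.7) and the cardiac gene Myh6 (22.1 against 147.1) were lower. The club cell gene Scgb1a1 was at 19639 CPM in parenchyma and 19651 in airways. Levels are CPM (read counts relative to the library total) scaled with TMM factors, and CPM does not compare one gene with another per length.

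Promoters of 6 genes are shown because the AhR list had the highest median log2FC of the gene lists. The other reason is that all 9 members of the MHC class II list fell with all libraries in the fit, and 7 without X12. Each is the stretch from 250 bases before to 50 bases after the start of transcription, from RefSeq on GRCm38.p6, written 5′ to 3′ along the gene's strand. Capitals in Ahrr (chr13:74292282-74292581, minus strand) and Cyp1b1 (chr17:79715012-79715311, minus strand) mark GCGTG, the core of the AhR response element, on either strand, so that CACGC is the same motif on the other strand.
Ahrr: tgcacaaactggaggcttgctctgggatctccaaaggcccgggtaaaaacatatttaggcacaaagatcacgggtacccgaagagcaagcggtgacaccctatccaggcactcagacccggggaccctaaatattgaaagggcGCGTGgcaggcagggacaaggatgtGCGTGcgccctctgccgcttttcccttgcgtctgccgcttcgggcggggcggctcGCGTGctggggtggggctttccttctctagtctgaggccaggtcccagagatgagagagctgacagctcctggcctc
Cyp1b1: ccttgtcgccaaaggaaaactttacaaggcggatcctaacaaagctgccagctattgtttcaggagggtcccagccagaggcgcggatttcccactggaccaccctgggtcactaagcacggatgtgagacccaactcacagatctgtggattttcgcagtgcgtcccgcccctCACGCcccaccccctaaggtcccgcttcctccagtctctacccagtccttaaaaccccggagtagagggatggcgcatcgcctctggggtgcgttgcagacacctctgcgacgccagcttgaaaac
Capitals in H2-Aa (chr17:34287774-34288073, minus strand), H2-Eb1 (chr17:34305617-34305916, plus strand), H2-Oa (chr17:34092129-34092428, plus strand) and H2-Ob (chr17:34238655-34238954, plus strand) mark GATTGG, with its reverse complement CCAATC, which holds the inverted CCAAT box of class II promoters.
H2-Aa: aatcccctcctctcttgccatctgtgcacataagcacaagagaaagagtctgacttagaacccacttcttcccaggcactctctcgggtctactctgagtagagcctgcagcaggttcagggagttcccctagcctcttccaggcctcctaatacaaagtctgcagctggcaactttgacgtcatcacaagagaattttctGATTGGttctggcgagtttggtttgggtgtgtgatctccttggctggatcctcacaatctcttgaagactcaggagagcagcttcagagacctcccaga
H2-Eb1: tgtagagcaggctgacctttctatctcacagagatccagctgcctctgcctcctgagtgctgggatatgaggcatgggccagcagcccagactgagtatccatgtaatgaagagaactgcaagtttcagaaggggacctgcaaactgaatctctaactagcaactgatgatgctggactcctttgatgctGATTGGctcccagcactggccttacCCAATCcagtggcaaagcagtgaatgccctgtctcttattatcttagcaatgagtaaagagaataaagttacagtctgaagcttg
H2-Oa: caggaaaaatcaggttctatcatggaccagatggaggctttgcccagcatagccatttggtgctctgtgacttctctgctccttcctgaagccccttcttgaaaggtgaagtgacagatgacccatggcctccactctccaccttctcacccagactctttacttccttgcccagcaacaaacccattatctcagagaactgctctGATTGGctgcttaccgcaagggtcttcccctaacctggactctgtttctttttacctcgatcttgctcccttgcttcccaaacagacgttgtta
H2-Ob: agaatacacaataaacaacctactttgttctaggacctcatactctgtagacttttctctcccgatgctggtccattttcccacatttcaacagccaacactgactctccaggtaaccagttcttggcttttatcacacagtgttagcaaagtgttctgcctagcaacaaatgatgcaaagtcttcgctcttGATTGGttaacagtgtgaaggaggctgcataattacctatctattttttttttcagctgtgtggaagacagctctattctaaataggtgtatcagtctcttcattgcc
The Ahrr promoter held 3 matches to GCGTG, of which the nearest began 27 and 82 bases before the start, and Cyp1b1 held 1, at 76 bases. Of all 32851 promoters of this length, taken with 1 chromosome left out, 32.4% held GCGTG. Promoters were found for 8 of the 10 AhR list genes. Of these 8 promoters, 5 held GCGTG (62.5%), and no match was found in Nqo1 or Ugt1a6a. The NRF2 list had nearly the same share, 17 of 29 promoters (58.6%), and the longer motif TTGCGTG was in 0 of 8 AhR promoters and in 1.16% of all promoters. Promoters were available for 6 of the 9 MHC class II genes, without H2-Ab1, Cd74 and Ciita, and H2-DMa had more than 1. GATTGG lay in 6 of 7 MHC class II promoters (85.7%), against 16.1% of all promoters. Its matches began 49 bases before the start in H2-Aa, 60 and 35 in H2-Eb1, 44 in H2-Oa and 58 in H2-Ob. CCAAT, which GATTGG overlaps, was in 37.4% of all promoters, and the antioxidant response motif TGACNNNGC was in 12.4% of all promoters and in 9 of 29 promoters of the NRF2 list. These matches describe letters in a window and do not show that a factor was bound.

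With smoke, 4 of 9 AhR pathway genes, 7 of 14 neutrophil granule genes and 8 of 11 alveolar type I genes rose in the parenchyma of HDM-exposed mice treated with DEX, and none of these lists had a member that fell. In contrast, 11 of 14 T cell genes, 9 of 16 B cell and plasma cell genes and 9 of 9 MHC class II genes fell and none rose. Of 17226 genes tested, 348 were called at adj.p.val < 0.05 with log2FC ≥ 1 or ≤ -1, of which 241 were lower (1.4% of the genes tested) and the rest higher (0.621%). Without a limit on fold change, 1141 genes rose (6.62%) and 1260 fell (7.31%), and "rose" and "fell" are used below for adjusted p < 0.05 alone. The median log2FC over all genes was -0.0065. The median absolute log2FC over the 348 called genes was 1.28, and in 14 of these the 2 groups did not overlap in any library. Over all genes, 44 had all 10 smoke libraries above all 10 air libraries (0.255%) and 19 had them below (0.11%). Without X32, 343 genes were called and 240 of them were lower. Without X12 301 genes were called, 0.738% of the genes higher and 1.01% lower. Without X160 93 were called higher and 222 lower, and without all 3 libraries 93 were called higher and 160 lower. Of the genes called lower, 46 were immunoglobulin variable segments.

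**Figure D1:**
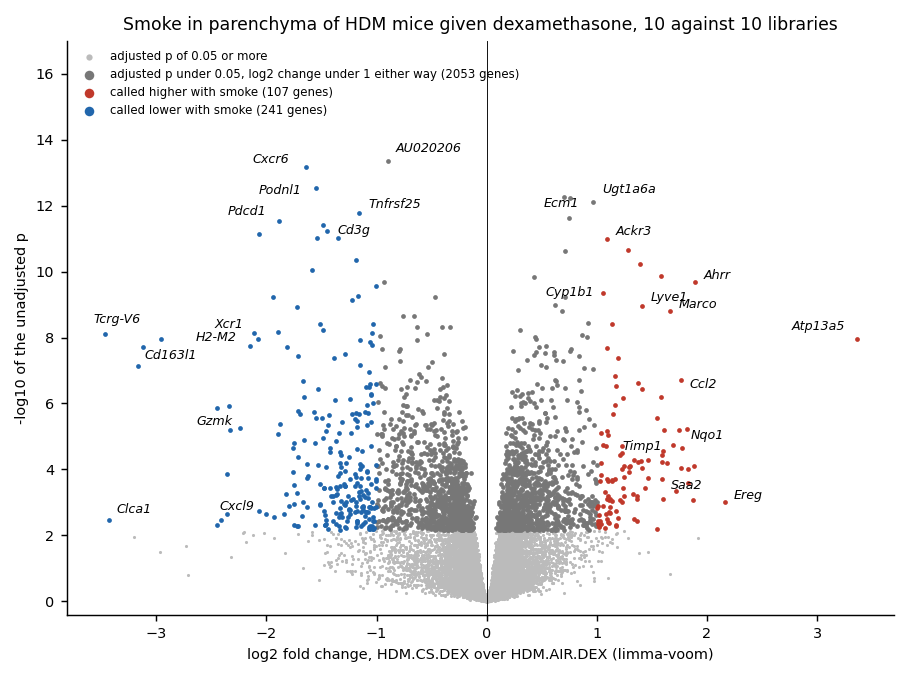
Volcano plot of 17226 genes, with the log2 fold change of HDM.CS.DEX over HDM.AIR.DEX on the x axis and -log10 of the unadjusted p on the y axis. Genes called higher (0.621%) are red and the 241 called lower are blue. Atp13a5 lies farthest to the right and Tcrg-V6 farthest to the left, while Cxcr6 has the smallest p among the called genes.

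The AhR pathway had the highest median of the gene lists. Of 9 members tested, 4 rose and none fell, with a list median log2FC of 0.97. Ahrr, the receptor's repressor (chr13:74211118-74292331), was 0.131 to 1.16 CPM (median 0.504) in HDM.AIR.DEX and 0.586 to 2.53 CPM (median 1.97) in HDM.CS.DEX. In 9 of 10 smoke libraries Ahrr exceeded every air library, and the exception was X160. It rose 3.70-fold (log2FC 1.89 ± 0.26 SE, adjusted p = 1.5e-07). Cyp1b1, a cytochrome that oxidises polycyclic hydrocarbons, was 10.7 to 26.04 CPM (median 16.2) under air and 25.5 to 39.6 CPM (median 34.7) under smoke (log2FC 1.06 ± 0.15 SE, adjusted p = 2.9e-07). Nqo1, a quinone reductase driven by both AhR and NRF2 (chr8:107388225-107403206), was 2.21 to 3.70 CPM (median 2.93) under air and 5.86 to 22.8 CPM (median 8.86) under smoke, with no overlap (log2FC 1.77 ± 0.39 SE, adjusted p = 0.001). Ugt1a6a, a glucuronosyltransferase that shares exons with its Ugt1a neighbours and is uncertain for that reason, did not overlap either: it was 20.1 to 33.2 CPM (median 25.3) and 41.4 to 79.9 CPM (median 49.5) (log2FC 0.97 ± 0.11 SE, adjusted p = 2.2e-09). Cyp1a1, the classical AhR target, did not pass. Its levels were 5.55 to 39.3 CPM (median 12.7) under air and 3.63 to 140.7 CPM (median 27.02) under smoke, 4 smoke libraries lay above every air library and 1, X160, below them all (log2FC 0.97 ± 0.62 SE, adjusted p = 0.31). Ahr (log2FC 0.04), Arnt (0.02), Tiparp (0.08) and Aldh3a1 (0.74) did not pass.

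In the NRF2 list 5 of 28 members rose, none fell, and the median was 0.13. Besides Nqo1 these were Gpx2, a glutathione peroxidase of epithelia, the transferases Gstp1 (0.41) and Gsta4 (0.41), and Gclm (0.18), a subunit of the enzyme that starts glutathione synthesis. Gpx2 was 12.9 to 17.8 CPM (median 15.3) under air and 21.4 to 43.9 CPM (median 23.8) under smoke and did not overlap (log2FC 0.82 ± 0.18 SE, adjusted p = 0.0011). Gclc, the catalytic partner of Gclm, was at log2FC -0.01, and Hmox1 (0.08), Srxn1 (0.25) and Txnrd1 (0.15) did not pass. Of 20 xenobiotic metabolism enzymes, 6 rose and 1 fell. Cyp2a5, a coumarin hydroxylase with close copies in its family, went from a median of 26.2 CPM under air to 86.7 under smoke (log2FC 1.61 ± 0.33 SE, adjusted p = 0.00038), and the carboxylesterase Ces1g from 1.25 to 3.47 (log2FC 1.59 ± 0.40 SE, adjusted p = 0.0044). The transferase Gstt1 fell slightly (log2FC -0.20 ± 0.07 SE, adjusted p = 0.027).

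**Figure D2:**
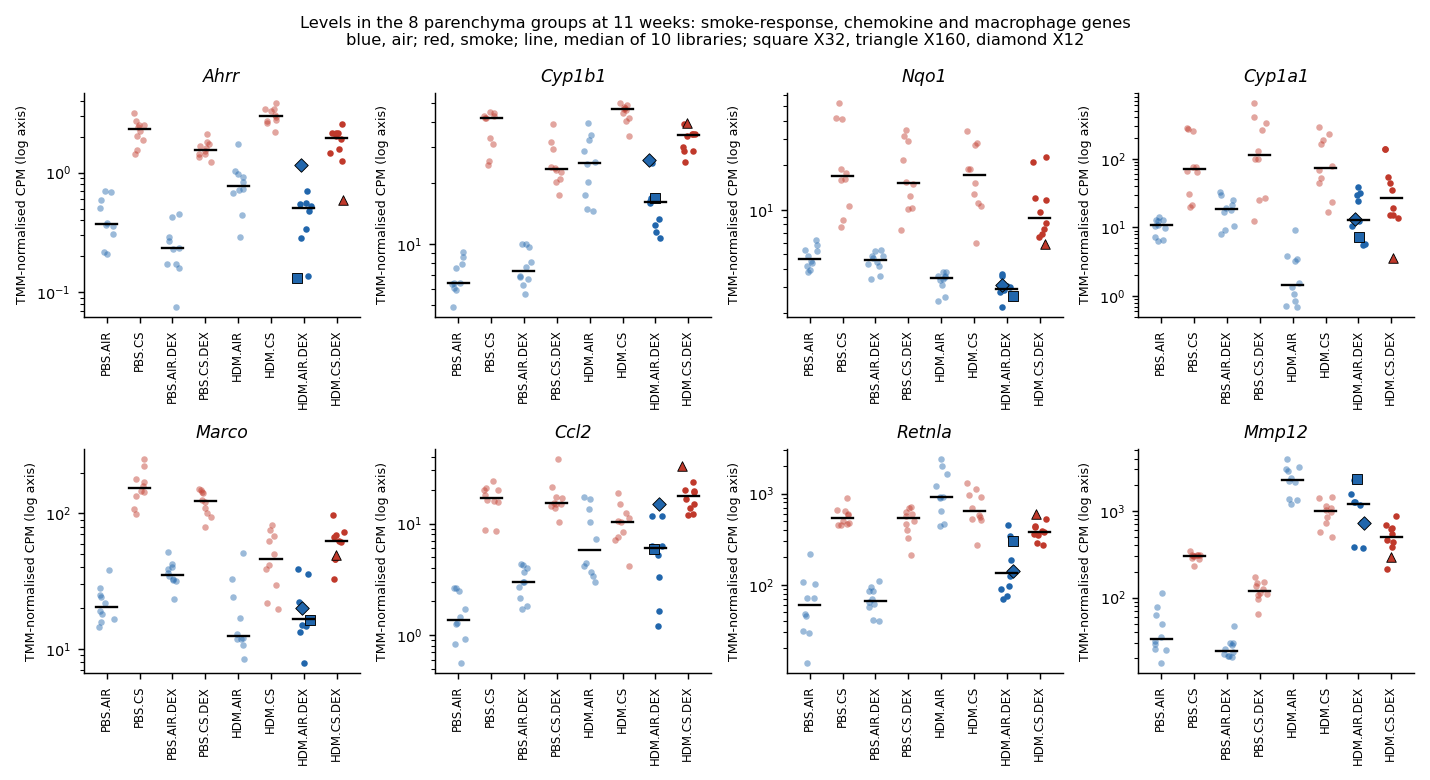
Levels in TMM-normalised CPM (log axis) of 8 genes in the 8 parenchyma groups at 11 weeks, 1 point per library, with air in blue, smoke in red and a line at the median of 10 libraries. The 2 groups compared are at the right of each panel, with X32 as a square, X160 as a triangle and X12 as a diamond. Nqo1 does not overlap between the 2 groups, Cyp1a1 overlaps, and Mmp12 is lower under smoke in HDM groups and higher in PBS groups.

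Macrophage genes moved in both directions. Among 29 genes of lipid-laden macrophages 4 rose and 5 fell, and without X160 2 of them fell, with a median of -0.09 in the whole set of libraries. Marco, a scavenger receptor for particles, was 7.90 to 38.8 CPM (median 16.7) under air and 33.2 to 96.7 CPM (median 62.4) under smoke (log2FC 1.66 ± 0.24 SE, adjusted p = 7.9e-07). Spp1, the secreted glycoprotein osteopontin, was 136.7 to 319 CPM (median 218) and 305 to 1123 CPM (median 508) (log2FC 1.24 ± 0.23 SE, adjusted p = 7.5e-05). Cd36, a fatty acid transporter that endothelium also makes, rose in every smoke library above every air library, from a median of 1288 to 1697 CPM (log2FC 0.45 ± 0.07 SE, adjusted p = 3.2e-06). Mmp12, the macrophage elastase, went the other way. It was 377 to 2313 CPM (median 1206) under air and 214 to 861 CPM (median 496) under smoke (log2FC -1.13 ± 0.27 SE, adjusted p = 0.0025), and without X32, which held its highest level under air, its log2FC was -0.96. Trem2 (log2FC -0.25 ± 0.16 SE, adjusted p = 0.31) and Gpnmb (log2FC -0.08 ± 0.22 SE, adjusted p = 0.85) did not pass. Of 15 alternative activation genes 3 rose, Retnla, Ccl24 and Il4ra, and 2 fell. Retnla, a secreted protein induced by interleukin-4 that has close copies, was 69.5 to 451 CPM (median 133.3) under air and 273 to 605 CPM (median 382) under smoke (log2FC 1.34 ± 0.31 SE, adjusted p = 0.0018), while Chil3 did not pass (log2FC -0.11 ± 0.29 SE, adjusted p = 0.84). Pdcd1lg2, a ligand of the PD-1 receptor, fell (log2FC -0.89 ± 0.23 SE, adjusted p = 0.0056). Lyve1, a hyaluronan receptor of lymphatic endothelium and of some interstitial macrophages, was singled out after its values were seen, as it did not overlap: it was 38.7 to 96.1 CPM (median 69.8) under air and 126.7 to 218 CPM (median 186.9) under smoke (log2FC 1.41 ± 0.20 SE, adjusted p = 5.9e-07).

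Spi1 and the 4 genes the study places downstream of it, a list the study chose from this series and so no independent evidence of a direction, had 1 of 5 members lower. Only the integrin Itgax fell (log2FC -0.51 ± 0.14 SE, adjusted p = 0.011), and without X12, X32 and X160 it did not pass (log2FC -0.38, adjusted p = 0.083). Spi1 itself was 44.5 to 84.9 CPM (median 71.8) under air and 46.7 to 69.4 CPM (median 56.9) under smoke (log2FC -0.19 ± 0.12 SE, adjusted p = 0.31). Il1rn (0.03), Ptafr (-0.24) and the beta-glucan receptor Clec7a (log2FC -0.45 ± 0.17 SE, adjusted p = 0.061) did not pass.

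The lists of chemokine genes for neutrophils and monocytes had members in both directions, but in the neutrophil list the falls depended on single libraries. Of 11 neutrophil chemokine and growth factor genes 5 rose and 2 fell, Il17a and Ppbp. Without X160 5 rose and none fell. Cxcl1, a ligand of the neutrophil receptor CXCR2, was 9.61 to 73.2 CPM (median 34.6) under air and 34.1 to 87.8 CPM (median 53.4) under smoke (log2FC 0.99 ± 0.26 SE, adjusted p = 0.0049), Cxcl2 passed (log2FC 0.94 ± 0.31 SE, adjusted p = 0.034), and the receptor gene Cxcr2 rose (log2FC 0.70). The call of Cxcl2 was lost in 12 of 30 alternatives, with adjusted p = 0.053 in edgeR and 0.055 in DESeq2. Cxcl5, from epithelium, did not pass (log2FC 0.30 ± 0.40 SE, adjusted p = 0.67). Csf2, which encodes GM-CSF, rose (log2FC 0.51 ± 0.14 SE, adjusted p = 0.011). The 2 interleukin-17 genes passed in opposite directions with all libraries in the main fit. Il17f was 0.34 to 2.67 CPM (median 0.756) under air and 1.61 to 6.43 CPM (median 2.57) under smoke (log2FC 1.6 ± 0.36 SE, adjusted p = 0.0012). Il17a was 3.60 to 23.04 CPM (median 7.66) under air and 3.07 to 13.4 CPM (median 4.10) under smoke, a fall (log2FC -0.83 ± 0.28 SE, adjusted p = 0.036) that did not pass without X12 (log2FC -0.65, adjusted p = 0.11) or without X160 (log2FC -0.76, adjusted p = 0.069). The groups overlap for both genes. The fall of Il17a was lost in 15 of 30 alternatives, edgeR and DESeq2 among them. The rise of Il17f was lost in 1 of 29, DESeq2 (adjusted p = 0.075). Neutrophil granule and alarmin genes had 7 of 14 members higher, none lower and a median of 0.72. Without X12, and also without X12, X32 and X160, 5 members rose. Retnlg (log2FC 1.04 ± 0.26 SE, adjusted p = 0.0037), the gelatinase Mmp9 (log2FC 0.92 ± 0.26 SE, adjusted p = 0.012) and S100a9 (log2FC 0.76) rose, whereas S100a8 did not pass (log2FC 0.63 ± 0.25 SE, adjusted p = 0.077). Camp, at a median of 0.524 CPM under smoke, did not pass without X12 (log2FC 0.80, adjusted p = 0.078). Mmp9 did not pass in edgeR or without HDM.AIR.DEX replicate 8, with adjusted p up to 0.067.

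Of 16 monocyte chemokine and receptor genes 2 rose and 1 fell. Ccl2, the main monocyte attractant, was 1.2001 to 14.9 CPM (median 6.08) under air and 11.9 to 32.8 CPM (median 17.9) under smoke (log2FC 1.76 ± 0.31 SE, adjusted p = 3.2e-05), and 7 smoke libraries exceeded every air library. Its neighbour Ccl7 rose too (log2FC 1.40 ± 0.33 SE, adjusted p = 0.0019). Ccl8, in the same chemokine cluster, was 9.70 to 134.4 CPM (median 32.2) under air and 7.45 to 22.1 CPM (median 11.2) under smoke and fell (log2FC -1.55 ± 0.31 SE, adjusted p = 0.00022). Among 10 acute phase genes 4 rose and none fell. Timp1, an inhibitor of metalloproteinases, was 4.56 to 31.1 CPM (median 15.9) under air and 23.4 to 127.7 CPM (median 42.1) under smoke (log2FC 1.69 ± 0.37 SE, adjusted p = 0.00085). The serum amyloids Saa1 (log2FC 1.24 ± 0.33 SE, adjusted p = 0.0069) and Saa2 (log2FC 1.87 ± 0.54 SE, adjusted p = 0.012) rose from low levels, under 6 CPM in every library, and their sequences are so alike that counts may be split between them, while Saa3 did not pass (log2FC 0.24 ± 0.34 SE, adjusted p = 0.68). The calls of Saa1 and Saa2 were lost in edgeR and in DESeq2, with adjusted p up to 0.068 and 0.054. Il1b (log2FC 0.51 ± 0.27 SE, adjusted p = 0.2) and Il6 (log2FC 1.18 ± 0.50 SE, adjusted p = 0.11) did not pass. In the list of IL-1 family, TNF and inflammasome genes none of 13 rose and 2 fell, Aim2 (-0.46) and Casp1 (-0.29), and Casp1 did not pass without X12 or without X160. Ereg, a ligand of the EGF receptor, had the largest rise of the called protein-coding genes with a mean of at least 1 CPM in the higher group (log2FC 2.16 ± 0.63 SE, adjusted p = 0.014), but its highest level, 17.2 CPM, was in X160 and the next was 2.05. Without X160 it was at log2FC 1.77, adjusted p = 0.039, and without the 3 libraries at log2FC 1.69, adjusted p = 0.073.

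T cell genes fell together. Of 14 members 11 fell and none rose, with a median of -0.84, and 9 fell without X12, X32 and X160. In bulk tissue, fewer cells of a type and less RNA per cell cannot be told apart. The list's summed level was 77.7 to 200.9 CPM (median 123.1) under air and 46.03 to 88.3 (median 59.4) under smoke. Cd3g, a chain of the T cell receptor complex, was 12.7 to 57.5 CPM (median 31.3) under air and 7.88 to 16.1 CPM (median 10.4) under smoke (log2FC -1.45 ± 0.18 SE, adjusted p = 9.1e-09). Cd3e was 6.19 to 17.7 CPM (median 10.6) and 3.90 to 6.22 CPM (median 4.84) (log2FC -1.17 ± 0.16 SE, adjusted p = 3.5e-07), and the helper cell receptor Cd4 8.05 to 48.7 CPM (median 17.4) and 7.77 to 15.1 CPM (median 8.85) (log2FC -0.95 ± 0.20 SE, adjusted p = 0.00047). Cd8a did not pass (log2FC -0.71 ± 0.28 SE, adjusted p = 0.068), nor did Foxp3 (log2FC -0.55). Pdcd1, which encodes the inhibitory receptor PD-1 (chr1:94038305-94052553), had the clearest separation of the list. It was 4.09 to 13.2 CPM (median 10.05) under air and 1.38 to 3.96 CPM (median 2.33) under smoke, with no overlap (log2FC -1.89 ± 0.23 SE, adjusted p = 5.6e-09). Cxcr6, a chemokine receptor of tissue-resident T cells (chr9:123806475-123811760), was 17.96 to 71.6 CPM (median 37.01) and 9.199 to 17.9 CPM (median 12.4), and all 10 smoke libraries lay below all 10 air libraries (log2FC -1.64 ± 0.18 SE, adjusted p = 5.7e-10). Tnfrsf25, a receptor of the TNF family on lymphocytes, did not overlap either: it was 2.68 to 6.09 CPM (median 4.38) and 1.03 to 2.51 CPM (median 1.89) (log2FC -1.16 ± 0.14 SE, adjusted p = 4.1e-09). Itgae, the integrin chain CD103 of resident T cells and some dendritic cells, fell from a median of 10.9 to 3.82 CPM (log2FC -1.49 ± 0.18 SE, adjusted p = 6.7e-09).

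Some genes known from gamma delta T cells were also lower, and no list was set for these cells. Except for Cd163l1 these genes were picked after their values were seen, and they are given as a description. Cd163l1, a scavenger receptor family gene that gamma delta T cells express (chr7:140218267-140231145), was 2.65 to 56.5 CPM (median 9.85) under air and 0.41 to 2.38 CPM (median 1.27) under smoke (log2FC -3.17 ± 0.53 SE, adjusted p = 1.3e-05). All smoke libraries lay below all air libraries, and the fall was -3.51 without the 3 libraries. Tcrg-V6, a gamma chain variable segment (chr13:19190356-19190929), was 0.29 to 4.14 CPM (median 1.17) and 0 to 0.191 CPM (median 0.111) (log2FC -3.47 ± 0.53 SE, adjusted p = 2.6e-06), also without overlap. The delta segment Trdv4 fell (log2FC -2.34 ± 0.44 SE, adjusted p = 0.00011), and so did the constant segments Tcrg-C1 (log2FC -1.90 ± 0.29 SE, adjusted p = 2.4e-06) and Tcrg-C4 (log2FC -1.72 ± 0.25 SE, adjusted p = 6.2e-07), whose sequences are similar enough to share reads. Il23r (log2FC -0.57 ± 0.22 SE, adjusted p = 0.069) and Sox13 (log2FC -0.10 ± 0.11 SE, adjusted p = 0.6), which other cells of the lung use too, did not pass. Over all T cell receptor segments tested, 6 of 19 variable and 6 of 6 constant genes fell and none rose.

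Cytotoxic lymphocyte genes had 7 of 11 members lower, with a median of -0.93, and 3 without X12, X32 and X160. Gzmk, a granzyme, was 0.262 to 1.94 CPM (median 0.631) under air and 0.0366 to 0.629 CPM (median 0.116) under smoke (log2FC -2.24 ± 0.46 SE, adjusted p = 0.00036). Ccl5, a chemokine of activated T and NK cells, was 13.2 to 50.04 CPM (median 34.1) and 5.43 to 20.8 CPM (median 10.4) (log2FC -1.53 ± 0.27 SE, adjusted p = 4.7e-05). Prf1, the pore protein of killing cells, was at log2FC -1.12 and passed, whereas Gzma (-0.82), Gzmb (-0.57) and the NK receptor Ncr1 (-0.64) did not.

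B cell and plasma cell genes had 9 of 16 members lower, a median of -0.94 and 6 lower without the 3 libraries. Their summed level was 3352 to 11972 CPM (median 7005) under air and 1670 to 4874 (median 3150) under smoke. Igha, the constant part of IgA heavy chains (chr12:113254830-113260236), was 281 to 1746 CPM (median 1233) under air and 215 to 551 CPM (median 311) under smoke (log2FC -1.57 ± 0.30 SE, adjusted p = 0.00016). Jchain, which joins IgA and IgM units, was 871 to 3005 CPM (median 1862) and 368 to 1208 CPM (median 795) (log2FC -1.33 ± 0.31 SE, adjusted p = 0.0021). Tnfrsf17, the plasma cell survival receptor BCMA, fell (log2FC -1.37 ± 0.29 SE, adjusted p = 0.00069), and Cd79a (-0.94) and Ighm (-1.18) fell as well. Ighg3 had a log2FC of -2.19 and did not pass. Of the immunoglobulin variable segments tested, 46 fell (26.7%), none rose and 91.9% had a log2FC below 0, with a median of -1.10. Segments of these families are near copies of one another, so single segments are uncertain. Pigr, the epithelial receptor that carries IgA into the airway, fell (log2FC -0.51 ± 0.17 SE, adjusted p = 0.029). It did not pass without X160 (log2FC -0.43, adjusted p = 0.082) or without X12 (log2FC -0.46, adjusted p = 0.06). Nor did it pass without the 3 libraries (log2FC -0.35, adjusted p = 0.22) or without HDM.AIR.DEX replicate 4.

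**Figure D3:**
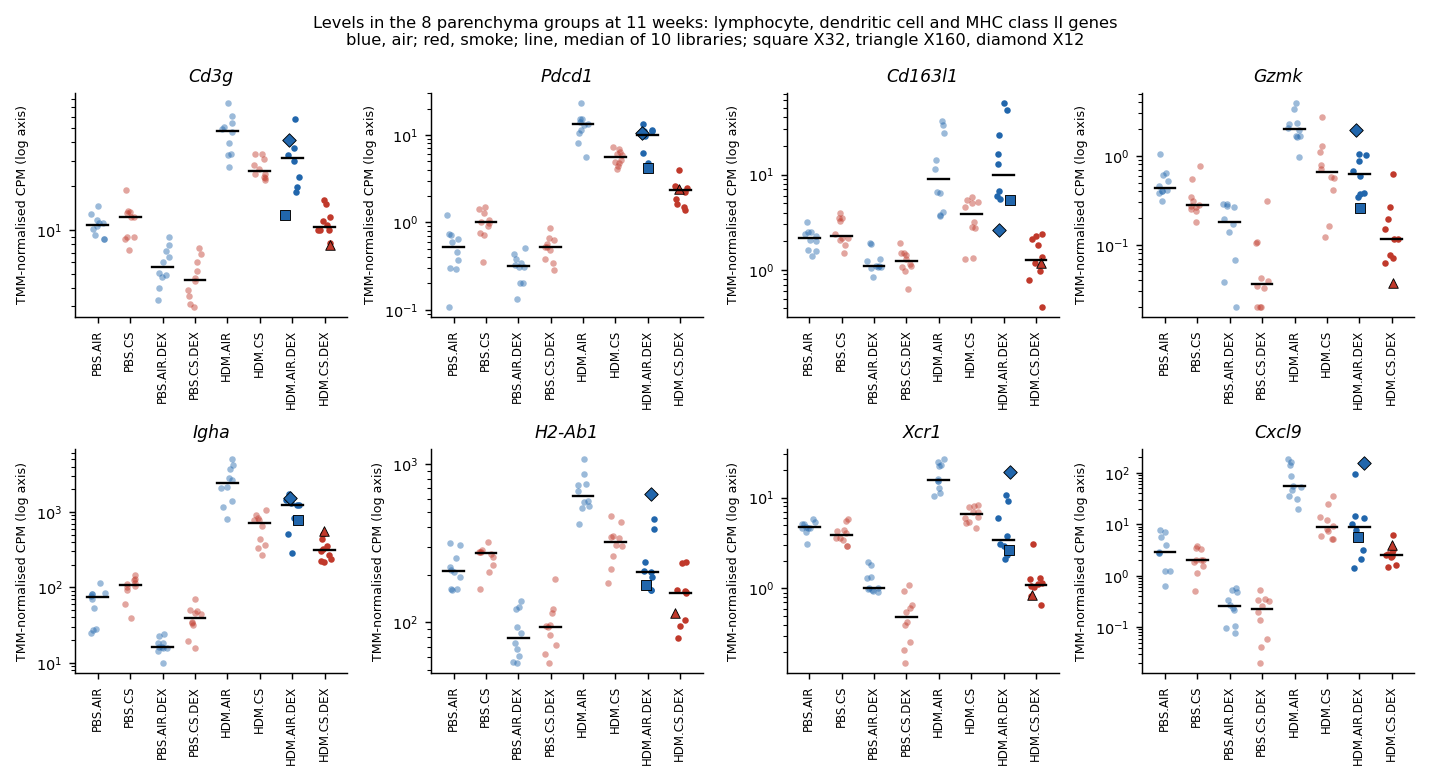
Levels in TMM-normalised CPM (log axis) of 8 lymphocyte, dendritic cell and MHC class II genes in the 8 parenchyma groups, 1 point per library, with air in blue, smoke in red and a line at the median of 10 libraries. X32 is a square, X160 a triangle and X12 a diamond. Pdcd1 and Cd163l1 do not overlap between HDM.AIR.DEX and HDM.CS.DEX, and X12 has the highest Cxcl9, H2-Ab1, Xcr1 and Gzmk under air.

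MHC class II genes were lower in each of the 9 members, with a median of -0.70, but the size depended on X12, which held the highest summed level, 4892 CPM. The other 9 air libraries went down to 1425, and the smoke libraries lay between 1023 and 2034. H2-Ab1 (chr17:34257689-34269419) was 158.9 to 647 CPM (median 208) under air and 78.98 to 239 CPM (median 153.8) under smoke (log2FC -0.83 ± 0.21 SE, adjusted p = 0.0035), and log2FC -0.68, adjusted p = 0.015 without X12. H2-Aa (log2FC -0.62 ± 0.15 SE, adjusted p = 0.0034) and H2-Eb1 (log2FC -0.83 ± 0.18 SE, adjusted p = 0.0009), which form the other classical chains, fell by similar amounts. The chains that regulate peptide loading in B cells and some dendritic cells, H2-Oa (log2FC -1.16 ± 0.32 SE, adjusted p = 0.0085) and H2-Ob (log2FC -1.08 ± 0.30 SE, adjusted p = 0.0088), had the lowest values of the list. Ciita was 12.4 to 87.03 CPM (median 23.2) and 11.3 to 23.9 CPM (median 14.8) (log2FC -0.70 ± 0.20 SE, adjusted p = 0.012), and did not pass without X12 (log2FC -0.47, adjusted p = 0.064). Without X12 7 members fell, and without the 3 libraries 6.

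Several called genes are known from the dendritic cells that cross-present antigen, for which no list was set. Xcr1, a chemokine receptor of these cells, was 2.09 to 19.3 CPM (median 3.42) under air and 0.664 to 3.08 CPM (median 1.09) under smoke, with X12 the highest under air (log2FC -2.11 ± 0.32 SE, adjusted p = 2.6e-06). It was -1.85 without X12. Tlr11, a receptor of the same cells for microbial proteins, was 1.55 to 10.3 CPM (median 2.76) and 0.586 to 2.33 CPM (median 0.822) (log2FC -1.94 ± 0.27 SE, adjusted p = 3.5e-07). Clec9a, their receptor for dead cells, was 4.33 to 12.3 CPM (median 9.37) and 1.17 to 4.95 CPM (median 3.01) (log2FC -1.54 ± 0.19 SE, adjusted p = 1.2e-08), and Irf8, a factor they need, fell too (log2FC -0.66 ± 0.10 SE, adjusted p = 1e-06). Batf3, another such factor, did not pass (log2FC -0.66 ± 0.25 SE, adjusted p = 0.067). Clec9a, Irf8 and Batf3 were added after values were seen. H2-M2, a non-classical class I gene, was 10.04 to 50.1 CPM (median 25.3) and 2.75 to 14.8 CPM (median 4.29) (log2FC -2.15 ± 0.34 SE, adjusted p = 4.7e-06), and Apol7e, also added later, fell from a median of 0.706 to 0.0797 CPM (log2FC -2.96 ± 0.46 SE, adjusted p = 3.2e-06).

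Interferon-gamma related genes had 5 of 11 members lower and none higher, with a median of -0.55. The 5 include Ciita, which is also in the MHC class II list. Cxcl9, a chemokine induced by interferon-gamma, was 1.43 to 153.7 CPM (median 9.03) under air and 1.46 to 6.13 CPM (median 2.55) under smoke (log2FC -2.0 ± 0.63 SE, adjusted p = 0.023). X12 was at the top of the air range, and without it the change did not pass (log2FC -1.49, adjusted p = 0.07). Cxcr3, its receptor (log2FC -1.03 ± 0.19 SE, adjusted p = 9.6e-05), and Tbx21, the factor of Th1 cells (log2FC -1.32 ± 0.30 SE, adjusted p = 0.0014), fell, and 2 members of the list fell without X12. Ifng (log2FC -1.03) did not pass. Of 10 lymphoid tissue chemokine and lymphotoxin genes 3 fell, 1 without X12 and none without the 3 libraries. Ccl19, which draws T cells into lymphoid tissue, was at log2FC -0.70, adjusted p = 0.17 without X12. Of 18 type I interferon response genes 2 fell, Oas2 (-0.81) and Zbp1 (-0.72), none rose, and Zbp1 did not pass without X12.

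Few type 2 and mucus genes passed. Of 16 type 2 cytokine and eosinophil genes 2 rose and 2 fell, and none did without X12, X32 and X160. The 2 that rose, Ccl24 and Il4ra, are the same genes that are counted in the alternative activation list. The genes Il5, Il9, Il13, Il25 and Epx did not reach the count filter. Prg2, a granule protein of eosinophils, was 0.632 to 2.23 CPM (median 1.21) under air and 0.257 to 0.943 CPM (median 0.51) under smoke (log2FC -1.15 ± 0.30 SE, adjusted p = 0.0062, and log2FC -0.91, adjusted p = 0.058 without the 3 libraries), and the eosinophil chemokine Ccl11 did not pass (log2FC -0.56 ± 0.40 SE, adjusted p = 0.37). Of 13 goblet cell genes none rose and 2 fell. Clca1, a secreted protein of mucus cells, had a wide range, 2.59 to 68.8 CPM (median 6.69) under air and 0.166 to 3.97 CPM (median 0.832) under smoke, with X32 the highest (log2FC -3.43 ± 1.14 SE, adjusted p = 0.032, and log2FC -3.29, adjusted p = 0.044 without X32). Without X12, X32 and X160 it did not pass (log2FC -3.49, adjusted p = 0.064), nor without HDM.CS.DEX replicate 4 (log2FC -3.15, adjusted p = 0.057). In 9 of 10 smoke libraries it was below every air library. The trefoil peptide Tff2 fell (log2FC -0.99 ± 0.28 SE, adjusted p = 0.012), while the mucin Muc5ac did not pass (log2FC -0.05 ± 0.32 SE, adjusted p = 0.94). None of 10 mast cell and basophil genes passed.

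Among structural genes the lists differed. Alveolar type I genes had 8 of 11 members higher, none lower and a median of 0.36, and 5 rose without the 3 libraries. Aqp5, the water channel of these thin cells, was 109.6 to 179.3 CPM (median 132.7) under air and 154.1 to 347 CPM (median 216) under smoke (log2FC 0.71 ± 0.10 SE, adjusted p = 3.5e-07). Emp2, a membrane protein, rose (log2FC 0.38 ± 0.07 SE, adjusted p = 7.4e-05), and the classical markers Ager (0.28) and Hopx (0.37) did as well. The summed level was 6909 to 8411 CPM under air and 8499 to 10425 under smoke, so the 2 groups did not overlap. Among 13 surfactant and alveolar type II genes 1 rose and 3 fell. Lyz1, a lysozyme of these cells with a close copy in macrophages, rose (log2FC 0.64 ± 0.17 SE, adjusted p = 0.0066), Cebpa (log2FC -0.40 ± 0.09 SE, adjusted p = 0.0013) and Nkx2-1 (log2FC -0.23 ± 0.06 SE, adjusted p = 0.0064) fell, and the surfactant gene Sftpc did not pass (log2FC -0.16 ± 0.11 SE, adjusted p = 0.32). Of 18 endothelial genes 7 rose and none fell, with a median of 0.30. Selp, the adhesion molecule P-selectin, was 2.13 to 8.36 CPM (median 5.01) and 6.18 to 17.7 CPM (median 11.6) (log2FC 1.23 ± 0.28 SE, adjusted p = 0.0013), Pecam1 was at 0.38, and Sele, another selectin, passed (log2FC 1.09 ± 0.36 SE, adjusted p = 0.03). The call of Sele was lost in 8 of 29 alternatives, with adjusted p = 0.069 in edgeR and 0.054 in DESeq2. Ackr3, a scavenger receptor of the chemokine CXCL12, was 12.4 to 18.8 CPM (median 17.1) and 24.7 to 59.4 CPM (median 33.9) without overlap (log2FC 1.09 ± 0.14 SE, adjusted p = 1.2e-08).

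Matrix genes had 9 of 23 members higher and none lower, with 6 higher without X160, which had the highest summed level, 7768 CPM against 4833 at most in the other smoke libraries. Sparc, a collagen-binding protein, was 623 to 967 CPM (median 771) under air and 999 to 2203 CPM (median 1152) under smoke and did not overlap (log2FC 0.71 ± 0.09 SE, adjusted p = 2.3e-08, and 0.61 without X160). Tnc, the matrix protein tenascin-C (log2FC 1.10 ± 0.28 SE, adjusted p = 0.0048), and Col12a1 (log2FC 0.62 ± 0.17 SE, adjusted p = 0.0081) rose. Lama1, a laminin chain, was 0.171 to 1.02 CPM (median 0.382) and 0.746 to 10.7 CPM (median 1.28), with X160 at the top (log2FC 1.82 ± 0.37 SE, adjusted p = 0.00037, and log2FC 1.52, adjusted p = 0.00097 without X160). Of 25 matrix proteases and inhibitors 5 rose and 4 fell. The proteases Adamts4 (log2FC 1.14 ± 0.29 SE, adjusted p = 0.005) and Mmp13 (log2FC 0.96 ± 0.27 SE, adjusted p = 0.01) rose, and Ctss, the cathepsin that trims the class II invariant chain, fell from a median of 1417 to 972 CPM (log2FC -0.65 ± 0.12 SE, adjusted p = 4.5e-05). Cst7, an inhibitor made by killer lymphocytes and macrophages, fell as well (log2FC -1.39 ± 0.23 SE, adjusted p = 8.5e-06).

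Other sources of RNA gave few changes. Club cell genes had 2 of 8 members higher, Bpifa1, an antimicrobial protein of the upper airway lining (log2FC 1.59 ± 0.36 SE, adjusted p = 0.0014), and Scgb3a2, a secretoglobin (log2FC 0.76 ± 0.19 SE, adjusted p = 0.003). The basal cell keratin Krt15 rose at a low level (log2FC 1.88 ± 0.45 SE, adjusted p = 0.0025) and was the only one of 8 squamous and basal genes to pass. None of 12 ciliated, 7 cardiac, 4 thymocyte, 5 haemoglobin, 13 mitochondrial or 19 cholesterol and fatty acid synthesis genes passed. In smooth muscle 1 of 10 genes rose (Smtn, 0.36), in adipose 1 of 7 fell (Cidec, -0.96), and in alveolar fibroblasts 2 of 10 rose, Slc7a10 (0.95) and Wnt2 (0.61). Smtn did not pass without X160, and Cidec did not pass without X12 or without X160. Of 5 ribosomal carry-over genes mt-Rnr1 passed as lower (log2FC -0.94 ± 0.31 SE, adjusted p = 0.032), and without X32 none did (log2FC -0.31, adjusted p = 0.22). Complement genes had 1 of 12 higher, the receptor C5ar1 (log2FC 0.49 ± 0.13 SE, adjusted p = 0.0077), and 2 lower, Hc, which encodes component C5 (log2FC -0.77 ± 0.15 SE, adjusted p = 0.00016), and C2 (-0.40). Of 17 lipid mediator genes 2 rose, the leukotriene enzyme Alox5 (log2FC 0.64 ± 0.11 SE, adjusted p = 4e-05) and the prostaglandin synthase Hpgds (log2FC 0.38 ± 0.11 SE, adjusted p = 0.013). In pattern recognition 2 of 13 fell, Tlr7 (-0.29) and Syk (-0.27), and none did without X32.

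Cell cycle genes had 7 of 23 members higher, none lower and a median of 0.69. Their summed level was 921 CPM in X160, 224 to 279 in the other smoke libraries and 167.8 to 285 under air. Without X160 the median was 0.39 and 2 members rose. Ccnb1, the cyclin of mitosis, was 0.585 to 3.76 CPM (median 1.56) under air and 1.67 to 34.5 CPM (median 3.20) under smoke (log2FC 1.25 ± 0.35 SE, adjusted p = 0.01, and log2FC 0.92, adjusted p = 0.033 without X160). Cdk1, its kinase partner, was 1.17 to 5.87 CPM (median 3.28) and 3.53 to 50.2 CPM (median 4.53) (log2FC 1.08 ± 0.34 SE, adjusted p = 0.023), and it did not pass without X160 (log2FC 0.74, adjusted p = 0.083). Iqgap3, a scaffold protein of dividing cells, was 0.206 to 1.10 CPM (median 0.616) and 1.09 to 18.4 CPM (median 1.45), and in 9 of 10 smoke libraries it lay above every air library (log2FC 1.75 ± 0.36 SE, adjusted p = 0.00039, and log2FC 1.40, adjusted p = 0.00064 without X160).

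Glucocorticoid receptor and target genes, which DEX is known to move, had 1 of 17 members higher and 1 lower. Fkbp5 was 24.7 to 69.9 CPM (median 35.4) under air and 34.2 to 92.6 CPM (median 40.3) under smoke (log2FC 0.29 ± 0.21 SE, adjusted p = 0.38), and Tsc22d3, which encodes GILZ, was 75.6 to 296 CPM (median 89.03) and 75.6 to 99.1 CPM (median 85.6) (log2FC -0.40 ± 0.24 SE, adjusted p = 0.27). Neither passed. Sgk1, a kinase, fell (log2FC -0.39 ± 0.08 SE, adjusted p = 0.00084), and Hsd11b1, which regenerates active glucocorticoid, rose (log2FC 0.40 ± 0.12 SE, adjusted p = 0.017). The receptor gene Nr3c1 was at log2FC -0.01. Single clock genes had wide ranges. Nr1d1 was 2.40 to 82.4 CPM (median 9.48) under air and 8.23 to 135.1 CPM (median 36.99) under smoke (log2FC 1.92 ± 0.74 SE, adjusted p = 0.069), Dbp was 1.84 to 22.8 CPM (median 3.98) and 1.64 to 107.3 CPM (median 7.72) (log2FC 1.10 ± 0.86 SE, adjusted p = 0.42), and Arntl was 18.1 to 42.3 CPM (median 31.7) and 4.44 to 34.6 CPM (median 22.2) (log2FC -0.91 ± 0.39 SE, adjusted p = 0.1). The part of the time of day in any result was not tested.

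Other genes were named by the size or the p-value of their change. Ano1, a calcium-activated chloride channel, was 64.5 to 89.03 CPM (median 74.5) under air and 102.2 to 145.7 CPM (median 120.5) under smoke without overlap (log2FC 0.70 ± 0.08 SE, adjusted p = 2e-09). Nt5e, the surface enzyme that makes adenosine, rose (log2FC 0.75 ± 0.09 SE, adjusted p = 2e-09), and Ecm1, a secreted matrix protein, was 39.4 to 63.3 CPM (median 55.8) and 70.9 to 110.2 CPM (median 89.1) without overlap (log2FC 0.75 ± 0.09 SE, adjusted p = 4.9e-09). AU020206, the gene with the smallest p of all, was 29.03 to 44.9 CPM (median 36.7) and 10.1 to 23.6 CPM (median 20.4) without overlap (log2FC -0.90 ± 0.10 SE, adjusted p = 5.7e-10). Podnl1, a leucine-rich matrix protein, fell (log2FC -1.55 ± 0.18 SE, adjusted p = 1.7e-09), as did the potassium channel Kcnc1, which was 0.823 to 2.22 CPM (median 1.23) and 0.0733 to 0.553 CPM (median 0.287) without overlap (log2FC -2.08 ± 0.33 SE, adjusted p = 3.2e-06), and the thrombospondin Thbs4 (log2FC -2.07 ± 0.64 SE, adjusted p = 0.02). Atp13a5, a P-type ATPase added after its values were seen, had the largest fitted rise of all called genes, but at a level of at most 0.777 CPM (log2FC 3.36 ± 0.52 SE, adjusted p = 3.2e-06).

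**Figure D4:**
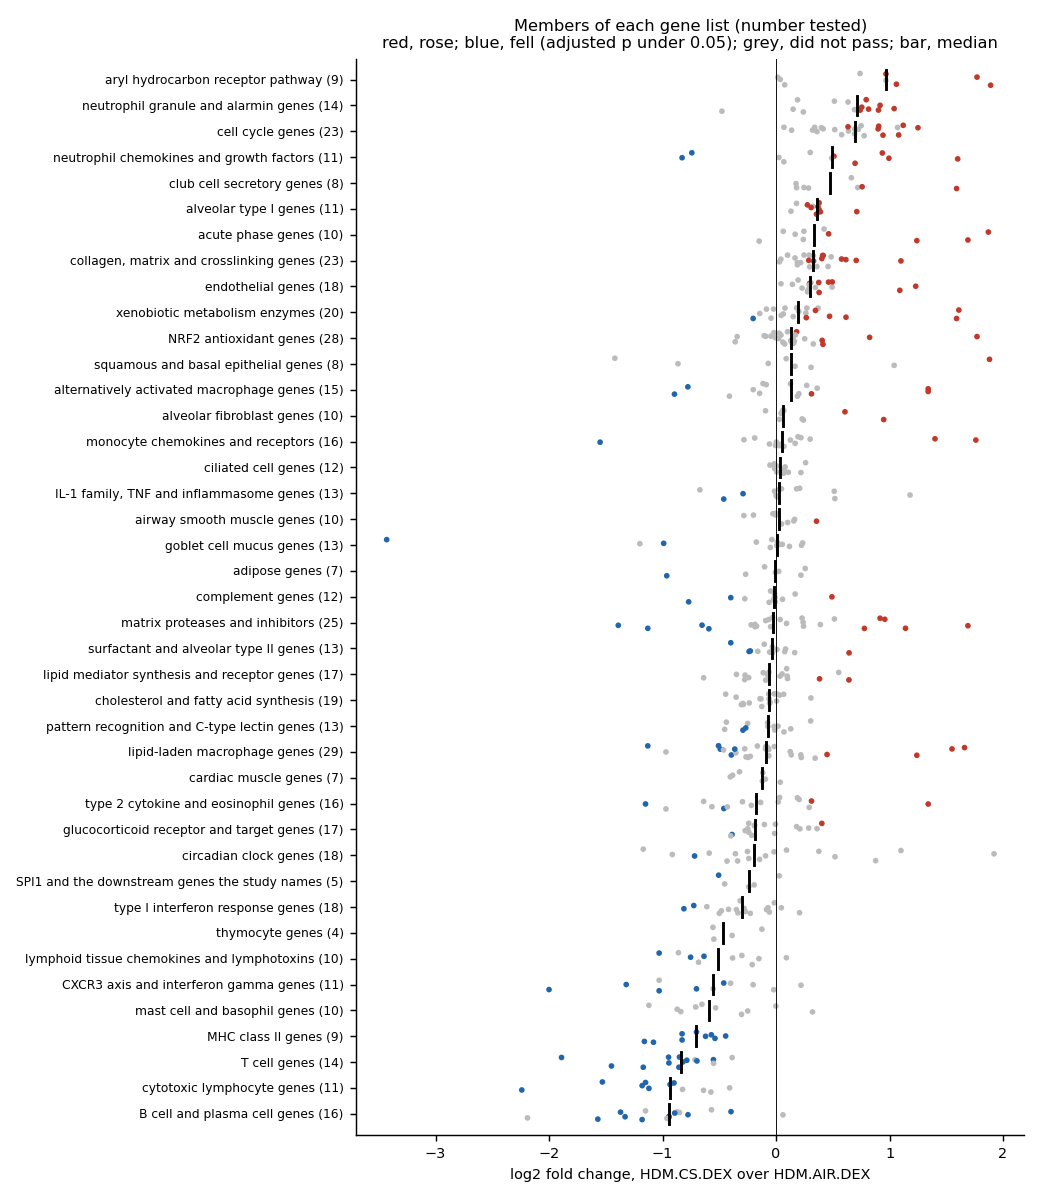
Log2 fold change (x axis) of each tested member of the gene lists (rows, number tested in brackets), with members that rose in red, members that fell in blue and the others in grey, and a bar at the list median. Medians run from 0.97 in the aryl hydrocarbon receptor pathway to -0.94 in B cell and plasma cell genes, and all 9 MHC class II points are blue.

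The smoke effect was set beside that in HDM-exposed mice without DEX, which shares no library with it. The difference of the 2 effects passed as higher with DEX for 727 genes (4.22%) and as lower for 603 (3.5%). Without X32 these counts were 863 and 412, without X160 479 and 356, and without X12 918 and 784. AhR targets rose in both settings. The list median was 1.10 without DEX, and the differences for Ahrr (difference -0.06 ± 0.33 SE, adjusted p = 0.94), Nqo1 (difference -0.53 ± 0.53 SE, adjusted p = 0.59) and Cyp1b1 (difference 0.17 ± 0.20 SE, adjusted p = 0.65) did not pass. Cyp1a1 was the exception. Its smoke effect was a log2FC of 5.43 without DEX and 0.97 with it, and the difference passed (difference -4.46 ± 1.2 SE, adjusted p = 0.013). Its median under air was 1.45 CPM without DEX and 12.7 with DEX, and under smoke 73.9 and 27.02.

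Cell cycle genes differed between the 2 settings. In 22 of 23 members the smoke effect was higher with DEX, and in 19 without X160 and 20 without X12, X32 and X160. Their median log2FC with smoke was -0.64 without DEX, where 18 members fell, and 0.69 with DEX. The medians of Cdk1 were 10.9 (HDM.AIR), 8.72 (HDM.CS), 3.28 (HDM.AIR.DEX) and 4.53 CPM (HDM.CS.DEX). Timp1 had a smoke effect of -1.42 without DEX and 1.69 with DEX (difference 3.10 ± 0.49 SE, adjusted p = 7.5e-05). Its medians in the same order were 75.2, 25.1, 15.9 and 42.1 CPM. Serpinb9b, a granzyme inhibitor family member, also had the higher smoke effect with DEX (difference 2.55 ± 0.33 SE, adjusted p = 4.9e-07), as did Retnla (difference 1.89 ± 0.47 SE, adjusted p = 0.0078), Ccl7 (difference 1.59 ± 0.44 SE, adjusted p = 0.016), Selp (difference 1.32 ± 0.37 SE, adjusted p = 0.016) and Il1b (difference 1.39 ± 0.38 SE, adjusted p = 0.014). In the opposite direction, Gstm1 rose with smoke without DEX (1.06) and did not pass with DEX (0.17, difference -0.89 ± 0.15 SE, adjusted p = 0.00012), as did the thyroid hormone receptor gene Thra (difference -0.65 ± 0.10 SE, adjusted p = 4.4e-05). The homeobox gene Irx2 did not pass without DEX (0.15) and fell with it (-0.37, difference -0.52 ± 0.09 SE, adjusted p = 0.00047). In the lymphoid lists the difference passed for no T cell, B cell, cytotoxic or MHC class II gene with all libraries, and without X12 it passed as higher with DEX for 2 MHC class II genes and 1 B cell gene, and without X32 as lower for 1 T cell gene. Of the single genes, Podnl1 (difference -0.94 ± 0.22 SE, adjusted p = 0.0046) and Tnfrsf25 (difference -0.84 ± 0.18 SE, adjusted p = 0.0023) fell more with DEX. The difference for Tcrg-V6 (difference -1.91 ± 0.69 SE, adjusted p = 0.074) and Cd163l1 (difference -1.56 ± 0.68 SE, adjusted p = 0.14) did not pass.

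Set beside the smoke effect in PBS-exposed mice with DEX, the difference passed as higher in HDM mice for 1301 genes (7.55%) and as lower for 1444 (8.38%). These counts were 1230 and 1286 without X32, 1266 and 1412 without X12, and 1393 and 1534 without X160. The AhR median was 1.16 in PBS mice. In the lymphoid lists, the median of T cell genes was -0.03 in PBS mice, and the smoke effect was lower in HDM mice for 9 of 14 members, or 8 without the 3 libraries. For MHC class II genes the median was 0.15 in PBS mice and the effect was lower in HDM mice for 7 of 9. Pdcd1 went from a median of 0.316 CPM in PBS.AIR.DEX to 0.522 in PBS.CS.DEX (difference -2.61 ± 0.53 SE, adjusted p = 0.0002). Igha rose in PBS mice, from 16.3 to 39.4 CPM, and fell in HDM mice (difference -2.69 ± 0.42 SE, adjusted p = 2.6e-06). Cytotoxic genes were lower with smoke in both, with a median of -1.70 in PBS mice.

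Several inflammatory and macrophage genes had larger smoke effects in PBS mice. Complement genes had a median of 1.02 there and were lower in HDM mice in 9 of 12 members, and the acute phase median was 1.75 in PBS mice and 0.33 in HDM mice. Mmp12 rose with smoke in PBS mice, from a median of 24.5 to 120.2 CPM, and fell in HDM mice (difference -3.31 ± 0.36 SE, adjusted p = 1.5e-10). Saa3 rose in PBS mice (3.56) and did not pass in HDM mice (difference -3.32 ± 0.50 SE, adjusted p = 1.1e-06), and the neutrophil chemokine Cxcl5 was alike (difference -2.74 ± 0.63 SE, adjusted p = 0.0011). In PBS.AIR.DEX the median of Saa3 was 12.05 CPM and in HDM.AIR.DEX it was 327. Lemd1 (difference -4.44 ± 0.30 SE, adjusted p = 3.3e-20), the amino acid transporter Slc6a20a (difference -2.38 ± 0.16 SE, adjusted p = 1.6e-20) and Pigr (difference -2.89 ± 0.22 SE, adjusted p = 2.9e-17) had the smallest p-values of this difference among genes lower in HDM mice. All 3 rose in PBS mice, and their log2FC in HDM mice was 0.04, -0.05 and -0.51. Alveolar type I genes, in 7 of 11 members, and endothelial genes, in 9 of 18, had the higher smoke effect in HDM mice. Aqp5 was at -0.13 in PBS mice (difference 0.84 ± 0.14 SE, adjusted p = 1.8e-05), and Wnt2, a signal of alveolar fibroblasts, fell in PBS mice (-0.54) and rose in HDM mice (difference 1.15 ± 0.18 SE, adjusted p = 3.4e-06). Of single genes, the matrix protein Tnn (difference 0.89 ± 0.12 SE, adjusted p = 5.1e-08), the neuronal growth protein Gap43 (difference 1.29 ± 0.18 SE, adjusted p = 1e-07) and Ndufa4l2 (difference 1.01 ± 0.15 SE, adjusted p = 6.1e-07) had the smallest p-values among genes with the higher effect in HDM mice.

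**Figure D5:**
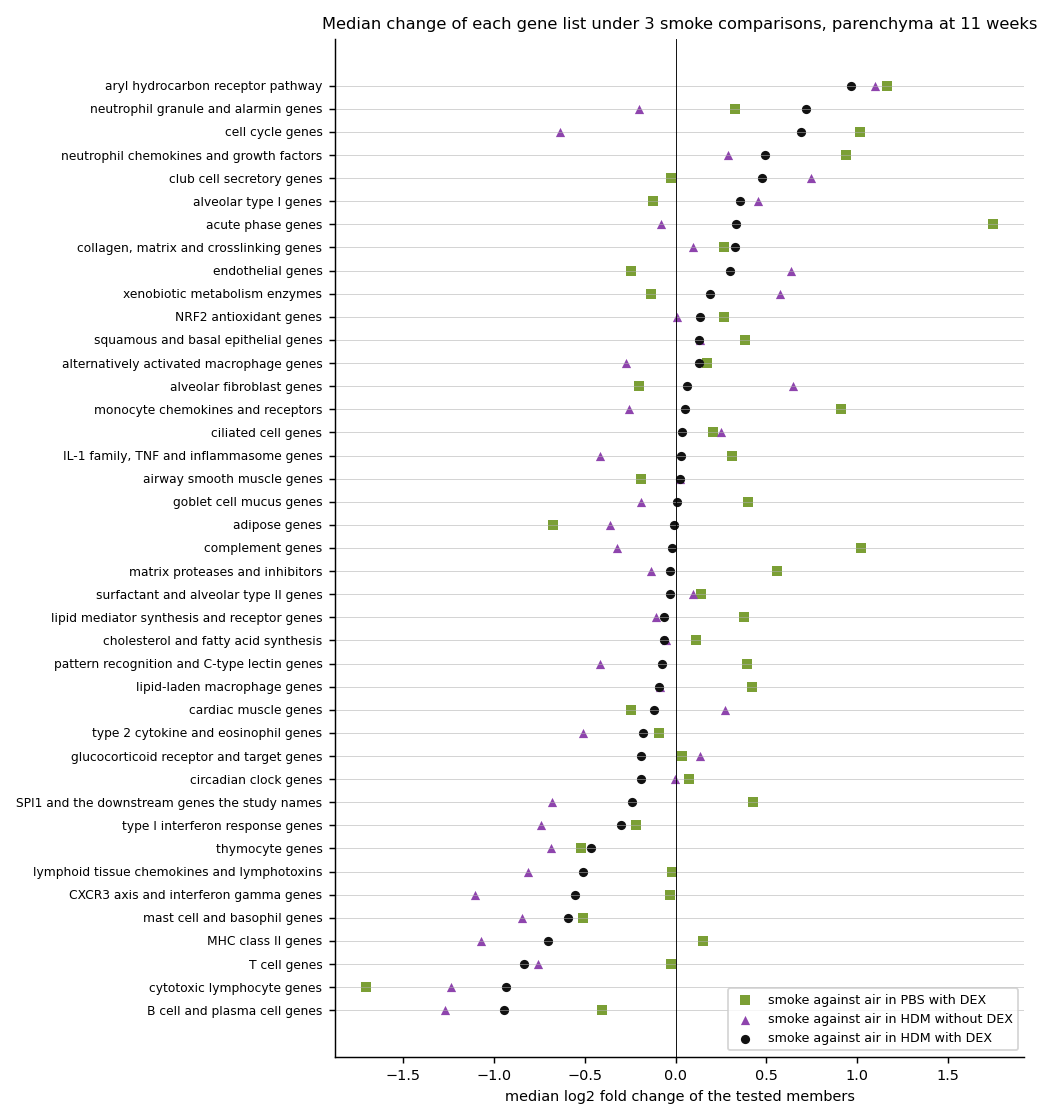
Median log2 fold change with smoke (x axis) of each gene list (rows) in HDM mice with DEX (black circles), HDM mice without DEX (purple triangles) and PBS mice with DEX (green squares). The AhR medians are 0.97, 1.10 and 1.16, the cell cycle medians are 0.69, -0.64 and 1.01, and the MHC class II medians are -0.70, -1.07 and 0.15.

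The tests were limma-voom contrasts over 80 libraries, adjusted over all genes tested. Cell numbers were not measured, so the part that shifts between cell types, including the lower lymphoid and higher alveolar type I levels, had in any gene's change was not tested.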

How the data were processed

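RNA was extracted from mouse lung parenchyma, and the libraries were sequenced as single reads of 100 bases. The authors deposited 1 table of estimated counts per gene for 43346 identifiers, not normalised, on the mm10 build. The submitters' processing notes name bcl2fastq 2.20.0.422, STAR 2.5.1b, RSEM 1.2.31 and kallisto 0.44.0, and neither the tool behind the table nor the use of strand is given in the sources used here, so a gene and its antisense partner cannot be told apart. Fractions made up 20.3% of the values above 0, so each value was rounded to a whole number. Gene symbols came from the GENCODE M21 annotation, in which 23106 identifiers matched with their version and 42462 without it.

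Genes with at least the CPM equivalent of 10 counts (0.362 CPM) in at least 9 libraries were kept, scaled with TMM (edgeR 4.0.16) and fitted with limma-voom (limma 3.58.1, R 4.3.3) over the 80 parenchyma libraries and 8 groups at 11 weeks, with 72 residual degrees of freedom and Benjamini-Hochberg adjustment. The smoke effect was HDM.CS.DEX minus HDM.AIR.DEX, and 2 interaction terms set it against the smoke effects without DEX and in PBS mice. All groups came from the labels. The members and gene lists were chosen with earlier results of these data known. Named genes were the 8 largest changes in each direction among called protein-coding genes with a mean of at least 1 CPM in the higher group. The lower group of such a gene could lie near the floor. Named as well were the 5 smallest p-values in each direction, a set named whatever its values, and up to 3 members of each list in each direction. The 3 smallest p-values of each interaction in each direction were also named. Other genes were named after their values were seen, where the text says so, and besides these Csf2, Cd4, Cd8a, Itgae, Il6, Cd36, H2-Aa, H2-Eb1, Ciita, Sftpc, Nr1d1, Dbp and Arntl. Alternatives used other libraries in the fit, edgeR, DESeq2 1.42.0, other scalings and filters, and libraries left out. Leaving out X12 and X160, alone or with X32, was chosen after seeing the data. The script was tested on simulated data. Total counts limit the precision of genes near the filter. Promoters were from RefSeq. Some single genes are not reported here.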

Additional observations from a re-analysis of the deposited data

Results flagged for a closer look

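In groups of 10 libraries, a library was singled out where its gap to the nearest other library exceeded 0.466 of the group's range (Dixon), on a log scale with 0.1 CPM added. This held in 16 cases for single genes and in 9 cases for the 88 list and group pairs, and chance flags about 1 in 20 groups.

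HDM.CS.DEX replicate 8 (X160) stood apart most often. It was highest for Ereg at 17.2 CPM, Lama1 at 10.7, Iqgap3 at 18.4, Fkbp5 at 92.6 and Serpinb9b at 28.4, and lowest for Ahrr at 0.586, AU020206 at 10.1, Chil3 at 1470.0 and Clec7a at 216.0. Its summed level was highest for type 2 and eosinophil genes (811), cell cycle genes (921), matrix genes (7768), smooth muscle genes (679) and squamous and basal genes (23.2), and lowest for SPI1 and its downstream genes (562). HDM.CS.DEX replicate 5 (X100) was highest for Xcr1 at 3.08 CPM, Tlr11 at 2.33 and the CXCR3 axis sum at 432. Replicate 9 of that group (X180) was highest for Ugt1a6a at 79.9, and replicate 10 (X200) was lowest for Il1b at 40.5.

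In HDM.AIR.DEX, replicate 2 (X32) stood apart in its total of 13003087 counts, its 40.39% of ribosomal carry-over, the ribosomal sum of 688636 CPM and Muc5ac at 12.5 CPM. Fkbp5 was highest in replicate 8 (X152) at 69.9 CPM, Saa3 lowest in replicate 9 (X172) at 67.2, and the summed monocyte chemokines highest in replicate 6 (X112) at 4588.

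The smoke effect differed with and without DEX, by an interaction term in limma, in 17 of 59 genes examined. Over all genes 4.22% passed as higher and 3.5% as lower, and the 59 include genes chosen for the smallest p-values of the interaction terms, so the 2 shares cannot be compared. It was lower with DEX in Cyp1a1 (-4.46), Kcnc1 (-1.29), Podnl1 (-0.94), Gstm1 (-0.89), Tnfrsf25 (-0.84), Thra (-0.65), AU020206 (-0.59) and Irx2 (-0.52). It was higher with DEX in Ano1 (0.47), Nt5e (0.57), Klhl6 (0.66), S100a8 (1.14), Il1b (1.39), Iqgap3 (2.30), Serpinb9b (2.55), Ereg (2.81) and Timp1 (3.10). Without X160 the difference did not pass for Ereg and Kcnc1.

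It differed between HDM and PBS mice in 29 of the same 59 genes, chosen in the same way, against 7.55% higher and 8.38% lower over all genes. It was lower in HDM mice in Lemd1 (-4.44), Saa3 (-3.32), Mmp12 (-3.31), Cd163l1 (-3.19), Pigr (-2.89), Cxcl5 (-2.74), Pdcd1 (-2.61), Slc6a20a (-2.38), Kcnc1 (-1.85), Il1rn (-1.68), Cxcr6 (-1.61), Trem2 (-1.49), Ptafr (-1.30), Podnl1 (-1.30), Tlr11 (-1.23), Tnfrsf25 (-1.14), Cxcl1 (-1.12), Itgax (-0.93), Gpnmb (-0.80), Cyp1b1 (-0.63), Spi1 (-0.56), Klhl6 (-0.45) and Gclc (-0.43). It was higher in HDM mice in Ano1 (0.43), Nt5e (0.62), Tnn (0.89), Ndufa4l2 (1.01), Ackr3 (1.05) and Gap43 (1.29). Without X12 it did not pass for Tlr11, Cyp1b1, Cxcl1 and Gclc, and without X32 it did not pass for Cyp1b1, Gpnmb and Gclc. Without X160 it did not pass for Gpnmb.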

How the results depend on the processing

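No paired analysis was possible because replicate numbers were given in accession order and do not pair libraries. The 348 called genes, 241 of them lower, became 208 with only the compared groups in the fit (65 higher), 97 with a minimum of 10 CPM in 9 libraries (75 lower), 42 with limma's treat test against a log2FC of 0.5 (32 lower), and 2401 with no limit on log2FC (1260 lower). With edgeR 533 genes were called (379 lower), with DESeq2 521 (363 lower), and with no filter on low counts 509 (387 lower), which moved the median of all genes to -0.097. Without X12, X32 and X160, 253 were called. Leaving out 1 library at a time gave 301 (without HDM.AIR.DEX replicate 1) to 417 called genes (without HDM.AIR.DEX replicate 5). The difference with and without DEX ranged from 479 (without HDM.CS.DEX replicate 8) to 918 genes higher and from 356 (without the same library) to 784 lower, with 394 lower without HDM.AIR.DEX replicate 9. Its lower count of 603 was 381 with all 160 libraries at 11 weeks and 246 with only the groups compared. The difference between HDM and PBS ranged from 1134 to 1440 higher and from 1267 to 1580 lower, and its higher count of 1301 was 2032 with sample quality weights. The cause of these shifts was not tested. A stricter filter leaves fewer genes, and a smaller fit fewer libraries. No named gene that passed changed direction under these alternatives. Of 170 named genes 29 lost significance with all 160 libraries in the fit, 10 with DESeq2 (6 gained it), 10 with edgeR (5 gained it), 10 with no filter and 5 without X32, and with only the compared groups 25 lost it. The calls lost most often were those of Tlr7 (20 of 30 alternatives), Slc34a2 (17), Ccl19 (16), Il17a (15), Cidec (13), Ocstamp (13 of 28), Cxcl2, Camp, Ppbp and Lta (12 each), Zbp1 and Sult1d1 (9 each), and Casp1, Syk and Sele (8 each). Clca1 was lost in 3 of 30, with the highest adjusted p (0.32) at a minimum of 10 CPM. Low counts limit genes near 0.362 CPM, such as Atp13a5, Gzmk and Saa2.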
